A study of Mus musculus with 8 samples.

Results

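RNA levels of 10 nuclear receptor genes, among 50615 genes in the table, were examined in bone marrow-derived macrophages (BMDMs), macrophages that were differentiated in vitro from marrow progenitors. The genes were taken by their symbols from a fixed list of receptors: Pparg, Ppard, Rxra, Rxrb, Rara, Vdr, Nr3c1, Nr4a1, Nr4a2 and Nr4a3. That list was chosen with earlier results of these data known. All 10 were found and all 10 passed the filter on low counts, a sum of at least 10 over the 8 libraries. The question behind the comparisons was what loss of NCOA6, a nuclear coactivator that nuclear receptors recruit, does to macrophages at rest and under inflammatory stimulation, and here it was asked of the receptors' own transcripts.

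The 4 groups had 2 libraries each from C57BL/6 mice, with different mice within a group per the methods. Whether a mouse supplied cells for both culture conditions is not stated. Ncoa6-KO BMDMs came from Ncoa6 fl/fl LysM Cre mice, in which Cre recombinase is driven by the myeloid lysozyme gene Lyz2 (LysM), and Ncoa6-sufficient BMDMs came from Ncoa6 fl/fl mice, so that both genotypes carried the floxed allele and differed in Cre. M-CSF at 20 ng/ml was given to all cultures over 6 days. One set was then kept in medium alone and the other set was given LPS, a bacterial cell wall component, at 100 ng/ml for 4 h and then monosodium urate (MSU) crystals at 200 µg/ml for 2 h, which the labels combine as LPS + MSU. The culture conditions therefore differ in both agents, and LPS and MSU cannot be told apart.

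Nuclear receptors are transcription factors that bind DNA through zinc fingers and recruit coactivators such as NCOA6 through their ligand-binding domain. PPARs, retinoic acid receptors and the vitamin D receptor bind DNA as heterodimers with a retinoid X receptor (RXR), and in macrophages PPARγ is known for lipid handling and for restraint of inflammatory genes. The glucocorticoid receptor (Nr3c1) carries the anti-inflammatory action of glucocorticoids. NR4A receptors are orphan receptors whose genes are immediate early genes, transcribed quickly after a stimulus, and their activity follows their amount rather than a ligand.

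The promoters of the NR4A genes are shown because 2 of these 3 genes rose under LPS + MSU and the third did not pass the test. Each stretch runs from 250 bases before to 50 bases after a RefSeq start site on GRCm38.p6. Capitals mark TGACG, the core of the cAMP response element (CRE), on either strand, where the minus strand reads as CGTCA.
Nr4a1, chr15:101266596-101266895, plus strand: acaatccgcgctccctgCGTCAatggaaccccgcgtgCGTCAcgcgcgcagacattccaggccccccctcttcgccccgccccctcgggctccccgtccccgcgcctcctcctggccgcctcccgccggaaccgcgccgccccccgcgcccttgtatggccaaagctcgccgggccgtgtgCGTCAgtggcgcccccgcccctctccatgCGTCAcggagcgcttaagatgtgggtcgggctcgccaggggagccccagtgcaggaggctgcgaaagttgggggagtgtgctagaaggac
Nr4a2, chr2:57123954-57124253, minus strand: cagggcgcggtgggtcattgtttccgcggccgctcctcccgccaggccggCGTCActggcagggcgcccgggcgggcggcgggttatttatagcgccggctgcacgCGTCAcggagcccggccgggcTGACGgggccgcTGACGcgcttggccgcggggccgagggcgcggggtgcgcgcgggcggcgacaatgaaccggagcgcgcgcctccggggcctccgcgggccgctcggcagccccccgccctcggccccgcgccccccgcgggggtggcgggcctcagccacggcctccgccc
Nr4a3, chr4:48045055-48045354, plus strand: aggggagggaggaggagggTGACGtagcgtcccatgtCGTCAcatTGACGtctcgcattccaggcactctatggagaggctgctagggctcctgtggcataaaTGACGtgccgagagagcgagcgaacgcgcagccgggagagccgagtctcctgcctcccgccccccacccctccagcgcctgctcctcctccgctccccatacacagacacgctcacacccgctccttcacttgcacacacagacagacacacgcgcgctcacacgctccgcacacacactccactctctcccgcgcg

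All 3 NR4A promoters held TGACG at 4 places. Of 32851 promoters of the same length in the table, 20.8% held TGACG at least once and 0.231% held it at 4 or more places. RefSeq sequences matched 9 of the 10 receptor genes, with 16 promoters in all, and TGACG occurred in 4 of the 13 promoters of the other 6 genes, 1 of Ppard, 1 of Rxrb and 2 of Rara. The full CRE, TGACGTCA, which contains TGACG, was in none of the 16 promoters and in 1.79% of all promoters. AGGTCA, the core of most nuclear receptor elements, was in 4 of the 16, 2 of Pparg, 1 of Rxra and 1 of Rara, against 16.3% of all. The longer NR4A element AAAGGTCA, which contains AGGTCA, was in 1, the downstream promoter of Rxra, against 1.51%. The NF-κB element was found in 6 of the 16 promoters, of Rxrb, Rara and Nr4a1, against 8.46% of all. These are matches of letters on both strands, and several promoters of 1 gene can overlap.

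Totals ran from 25281955 to 33673552 counts per library, and the TMM factors, which scale libraries to one another, were 1.23 to 1.29 with medium alone and 0.766 to 0.829 with LPS + MSU. Log2 counts of same-group libraries correlated at 0.987 to 0.992 across genes. Macrophage markers were abundant, with a sum of 272300 to 608400 normalized counts a library over 10 genes, while the marker lists of dendritic and stromal cells, neutrophils, mast cells with eosinophils, and lymphocytes (B, and T with NK) each summed to 5.25 to 996. Ncoa6 was at 1515 and 1405 normalized counts in Ncoa6-sufficient BMDMs with medium alone and at 784 and 622 in Ncoa6-KO BMDMs, and with LPS + MSU at 1297 and 1173 against 563 and 526. In the knockout it fell by 1.05 ± 0.11 and 1.18 ± 0.12 on the log2 scale (SE; loxP sites flank 1 exon and the counts cover the whole gene; edgeR adjusted p = 0.00236 and 0.00189). Normalized counts are counts scaled to a common library size of 29332189, and 2 libraries per group limit the precision of each value.

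In the resting macrophages Pparg, Rxrb, Nr3c1 and Rxra were the leading receptors of the list, and LPS + MSU changed their order. Per kilobase of exon, which allows genes to be compared, mean levels in Ncoa6-sufficient BMDMs with medium alone were 275 ± 33.0 (SD, n = 2) for Pparg, 235 ± 14.3 for Rxrb, 212 ± 0.0753 for Nr3c1 and 208 ± 19.5 for Rxra. Ppard followed at 57.1 ± 0.157 and Rara at 51.2 ± 4.94, then Nr4a1 at 12.3 ± 1.99, Nr4a2 at 3.53 ± 0.498, Vdr at 1.502 ± 0.245 and Nr4a3 at 0.404 ± 0.0389. Among neighbours in this order, only the libraries of Nr3c1 and Rxra overlapped. With LPS + MSU, Nr3c1 was highest at 635 ± 32.7 per kilobase, above Rxrb at 115 ± 3.70 and Pparg at 56.6 ± 10.2. Next came Rara at 25.3 ± 3.24, Nr4a3 at 24.7 ± 1.85, Nr4a2 at 22.1 ± 3.46 and Rxra at 22.1 ± 1.87, of which each overlapped its neighbour, and then Ppard at 17.0 ± 0.462 and Nr4a1 at 15.6 ± 4.80, which overlapped each other. Vdr was last at 0.490 ± 0.348. With the longest transcript as length, Ppard was at 115 with medium alone and, with LPS + MSU, at 34.3, the fourth level and above Rara at 32.7. Ncoa6-KO BMDMs had the same 4 leading genes with medium alone, where Pparg overlapped Rxrb and Rxrb overlapped Rxra, and the same leading 3 with LPS + MSU.

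**Figure D1:**
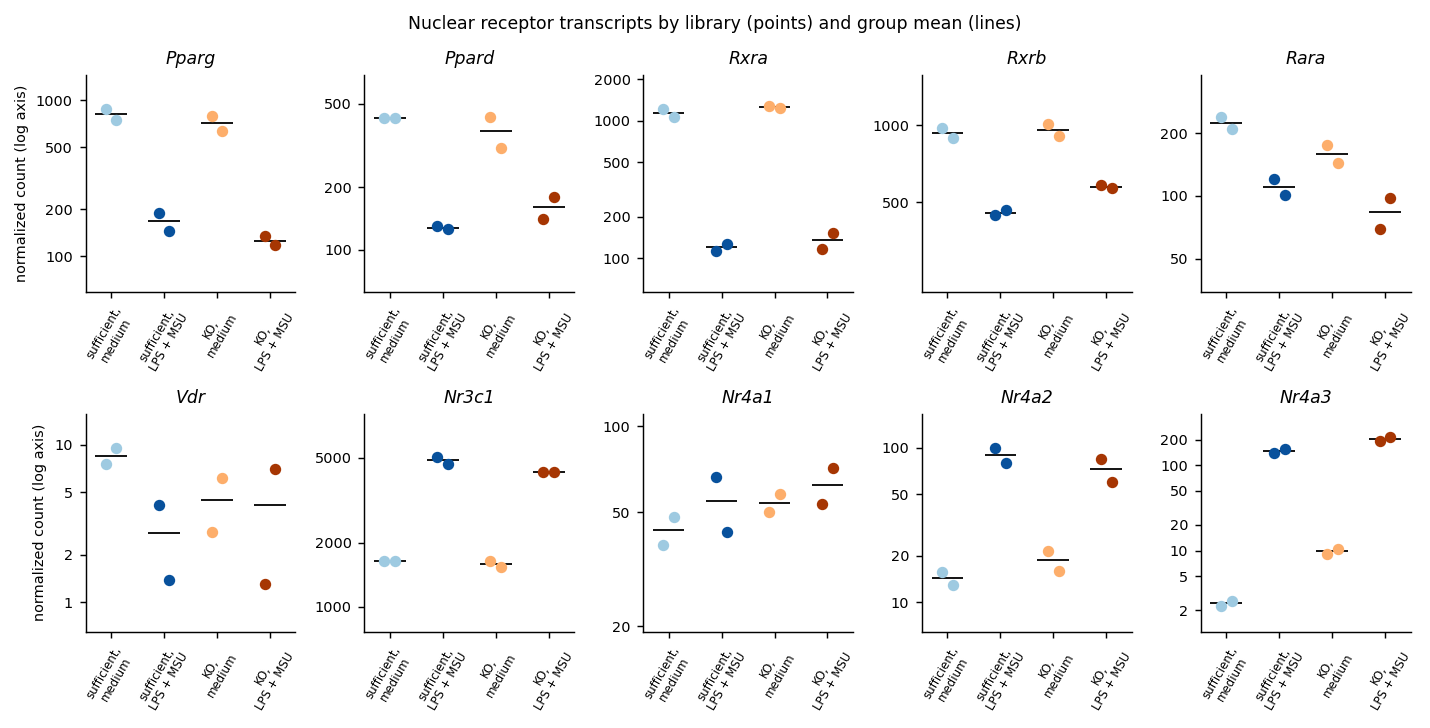
Normalized counts (log axis, own scale for each gene) of the 10 receptors in each library (points) and their group means (lines), for Ncoa6-sufficient and Ncoa6-KO BMDMs with medium alone or LPS + MSU. Pparg, Ppard, Rxra, Rxrb and Rara lie lower and Nr3c1, Nr4a2 and Nr4a3 lie higher with LPS + MSU in both genotypes, with no overlap of libraries.

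The response to LPS + MSU split the 10 receptors. Of these, 5 genes fell, Rxra, Rxrb, Pparg, Ppard and Rara, while Nr3c1, Nr4a2 and Nr4a3 rose. Vdr and Nr4a1 were not called, and the calls were the same in both genotypes. A gene was called at an edgeR adjusted p under 0.05 over all 17625 genes tested. In Ncoa6-sufficient BMDMs 55.2% of all genes were called, 24.7% higher and 30.5% lower, and in Ncoa6-KO BMDMs 53.1%, 25.2% higher and 27.9% lower, so that the 8 of 10 receptors called stand beside a background of more than 50%. The median log2 fold change of the 10 was -1.03 for Ncoa6-sufficient BMDMs and -0.41 for the knockout, beside -0.12 and -0.07 over all genes tested. The knockout median lies midway between Rxrb at -0.74 and Vdr at -0.09, and Vdr had few counts. The gap between these medians is therefore no measure of a weaker response in the knockout. Where TMM factors were replaced by library totals, the median of all genes moved by -0.66 and -0.63, and the share of called genes that were higher went from 44.8% to 20.6% in Ncoa6-sufficient and from 47.5% to 21.4% in Ncoa6-KO BMDMs. The 8 receptors kept their direction and their call with each scaling tried. In bulk RNA, fewer cells of a type and less RNA per cell cannot be told apart.

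Rxra, the RXR with the larger change, had 1211 and 1060 normalized counts in Ncoa6-sufficient BMDMs with medium alone, then 114 and 128 after LPS + MSU. In Ncoa6-KO BMDMs it had 1278 and 1239, then 118 and 154. Every stimulated library lay below every unstimulated one, and the log2 fold change was -3.23 ± 0.14 (SE; edgeR adjusted p = 9.53e-09) and -3.22 ± 0.14 (8.63e-09), or 0.1065 and 0.1077 of the level with medium alone. Rxrb, its paralog, went from 974 and 894 to 445 and 465 normalized counts in Ncoa6-sufficient BMDMs and from 1010 and 908 to 583 and 569 in Ncoa6-KO BMDMs. These were smaller decreases, of -1.04 ± 0.10 and -0.74 ± 0.10 on the log2 scale (adjusted p = 5.28e-06 and 7.88e-05). The mix of RXR transcripts shifted with them, which a ratio within a library shows without any scaling between libraries. Rxra made up 46.3 to 49.8% of the RXR level per kilobase in the 4 libraries with medium alone and 12.8 to 16.7% in the 4 with LPS + MSU. Rxrg, the third RXR gene, did not exceed 0.0893% in any library, and the level summed over the RXR genes was 419 to 488 per kilobase with medium alone and 133 to 172 with LPS + MSU.

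Pparg, the lipid-sensing receptor, had 882 and 744 normalized counts in Ncoa6-sufficient BMDMs with medium alone, then 188 and 146 after LPS + MSU, and 798 and 632, then 135 and 118, in Ncoa6-KO BMDMs. The decrease was -2.28 ± 0.17 and -2.50 ± 0.17 on the log2 scale (edgeR adjusted p = 4.91e-07 and 3.27e-07). Ppard, the more widely expressed PPAR, had 430 and 428 counts and then 130 and 125 in Ncoa6-sufficient BMDMs. In Ncoa6-KO BMDMs it had 433 and 307 counts and then 141 and 179, a spread that left the groups apart. Its log2 fold changes were -1.75 ± 0.19 and -1.22 ± 0.18 (adjusted p = 9.94e-06 and 0.000157). Pparg remained the main PPAR transcript, at 81.5 to 84.0% of the PPAR level per kilobase with medium alone and 62.5 to 78.6% with LPS + MSU, ranges that did not overlap, while Ppara was at most 0.0552%.

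Rara, a retinoic acid receptor, had 239 and 208 normalized counts in Ncoa6-sufficient BMDMs with medium alone, then 121 and 100.5 after LPS + MSU, and 175 and 143, then 69.3 and 97.9, in Ncoa6-KO BMDMs. The log2 fold change was -1.02 ± 0.20 and -0.94 ± 0.21 (edgeR adjusted p = 0.00109 and 0.00274). Its share of the RAR level per kilobase was 35.4 to 46.8% in unstimulated cells and 24 to 41.2% after LPS + MSU. These ranges overlapped only over both genotypes together. In Ncoa6-sufficient BMDMs the Rara share fell from 46.8 and 44.2% to 41.2 and 34.5%, without overlap. The knockout libraries did not overlap either, at 35.4 and 40.7%, then 24 and 25.8%. Nearly all of the rest was Rarg. Vdr, the vitamin D receptor, was near the limit of the depth, with 10 and 11 raw counts in Ncoa6-sufficient BMDMs with medium alone, then 3 and 1 after LPS + MSU, and 4 and 7, then 1 and 5, in Ncoa6-KO BMDMs. The ratio of LPS + MSU to medium was 0.328 in Ncoa6-sufficient BMDMs, with a 95% exact binomial interval of 0.0819 to 0.973, and 0.950 (0.288 to 2.80) in Ncoa6-KO BMDMs, intervals that cover counting error only. Neither response of Vdr was called (edgeR adjusted p = 0.152 and 0.942), although with library totals the first was (0.0383). At this depth a change of Vdr could not be told from none.

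Nr3c1 had 1630 and 1631 normalized counts in Ncoa6-sufficient BMDMs with medium alone, then 5054 and 4699 after LPS + MSU. In Ncoa6-KO BMDMs it had 1631 and 1527, then 4294 and 4312. The increase was 1.58 ± 0.09 and 1.45 ± 0.09 on the log2 scale, folds of 2.99 and 2.73 (edgeR adjusted p = 5.70e-08 and 1.20e-07). The value depends on the scaling in size, at 0.91 and 0.81 with library totals, and not in its direction.

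Among the NR4A receptors, Nr4a3 showed the largest rise of the list. Nr4a3 had 2.25 and 2.58 normalized counts in Ncoa6-sufficient BMDMs with medium alone, which were 3 raw counts in each library, and 140 and 156 with LPS + MSU. In Ncoa6-KO BMDMs it had 9.04 and 10.5, then 193 and 213. The ratio of counts was 61.5 in Ncoa6-sufficient BMDMs, with a 95% exact interval for counting error of 27.8 to 169, and 20.9 (13.9 to 32.8) in Ncoa6-KO BMDMs, with edgeR adjusted p = 3.24e-08 and 4.90e-08. Nr4a2 had 15.8 and 12.9 counts and then 99.7 and 79.9 in Ncoa6-sufficient BMDMs, and 21.6 and 15.8, then 84.9 and 60.2, in Ncoa6-KO BMDMs. It rose by 2.63 ± 0.32 and 1.94 ± 0.31 on the log2 scale (adjusted p = 2.77e-05 and 0.000265). Nr4a1, the NR4A gene with the highest level at rest, had 38.3 and 48.2 counts against 66.5 and 42.7 in Ncoa6-sufficient BMDMs, and 50.1 and 58.0 against 53.6 and 71.4 in Ncoa6-KO BMDMs. Its groups overlapped in both genotypes, and neither log2 fold change, 0.34 ± 0.29 and 0.21 ± 0.28, was called (adjusted p = 0.355 and 0.563). With library totals these were -0.33 and -0.42, of opposite sign and also not called (adjusted p = 0.340 and 0.216).

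The NR4A mix therefore changed with LPS + MSU in every library. Nr4a1 made up 67.7 to 79.2% of the NR4A level per kilobase with medium alone and 21.0 to 28.8% with LPS + MSU. Nr4a3 went from 2.48 to 7.94% to between 34.9 and 50.3%, and Nr4a2, at 17.6 to 25.6% and 21.0 to 36.7%, overlapped over both genotypes together. In Ncoa6-sufficient BMDMs the Nr4a2 share did not overlap, at 25.6 and 18.3%, then 36.7 and 34%. In Ncoa6-KO BMDMs it did, at 25.2 and 17.6%, then 30.6 and 21.0%. The level summed over the NR4A genes was 15.2 to 22.2 per kilobase with medium alone and 57.8 to 70.7 with LPS + MSU. Using the longest transcript of each gene as its length in place of all exons moved the Nr4a3 share with LPS + MSU to 31.2 to 45.3% and that of Rxra to 9.75 to 12.8%, with the same separation of the conditions.

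**Figure D2:**
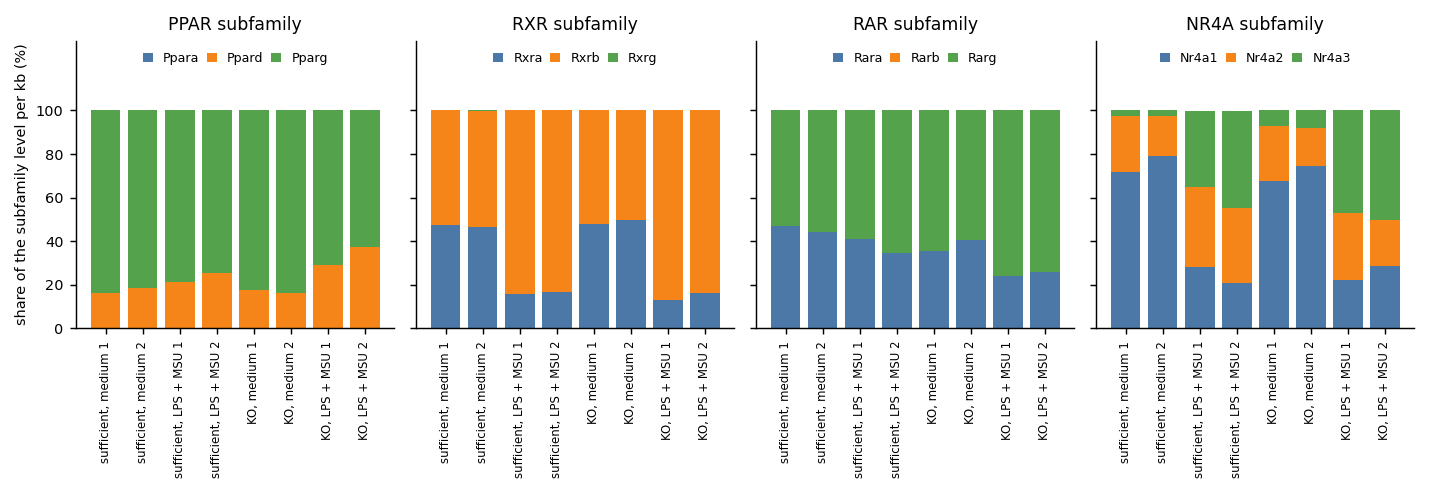
Share of each gene in the level per kilobase summed over its subfamily (bars stacked from 0 to 100%), for each of the 8 libraries, numbered 1 and 2 within a group. Rxra falls from 46.3 to 49.8% of RXR to 12.8 to 16.7% with LPS + MSU, and Nr4a1 from 67.7 to 79.2% of NR4A to 21.0 to 28.8%.

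Between genotypes, 1 difference among the receptors' own transcripts passed the test, and it did so narrowly. With medium alone 1 of the 10 was called, Nr4a3, which was higher, beside 1.88% of all genes, 0.573% higher and 1.3% lower. With LPS + MSU 0 of the 10 were called at an edgeR adjusted p under 0.05, beside 3.59% of all genes, 1.96% higher and 1.63% lower, and DESeq2 also called 0. At an unadjusted edgeR p under 0.05, 2 of the 10 were found with LPS + MSU, Rxrb and Nr4a3, beside 17.4% of all genes. With medium alone there were also 2, Rara and Nr4a3, beside 12.8% of all genes. The median log2 fold change of the 10 was -0.0037 with medium alone and 0.18 with LPS + MSU, beside -0.03 and 0.00 over all genes. The split of called genes with LPS + MSU, 54.6% higher, was 40.8% higher in DESeq2 and 68.8% with library totals.

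Nr4a3 in Ncoa6-KO BMDMs with medium alone stood at 9.04 and 10.5 normalized counts against 2.25 and 2.58, from 13 and 12 raw counts against 3 and 3. The ratio was 4.03 with a 95% exact interval for counting error of 1.62 to 12.0, and edgeR's adjusted p was 0.0499. This call depended on the setting, since the adjusted p was 0.0882 in DESeq2, 0.0504 with filterByExpr, 0.126 with limma-voom, 0.169 with only the 4 libraries compared, 0.0524 with library totals and 0.0933 to 0.419 when any 1 library of the comparison was left out. With LPS + MSU the ratio was 1.37 (1.15 to 1.64), from 193 and 213 against 140 and 156 normalized counts, groups that did not overlap, and the adjusted p was 0.226. So Nr4a3 was higher in each Ncoa6-KO library than in each Ncoa6-sufficient library of the same condition, and only the comparison with medium alone passed the threshold. Rxra, Rara, Vdr, Nr4a1 and Nr4a2 also did not overlap with medium alone, and Pparg, Ppard, Rxrb, Rara and Nr3c1 did not with LPS + MSU. For 2 against 2 libraries, such an order has a two-sided exact permutation p of 0.333. Its share over all genes is not given here.

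Rara was lower in each Ncoa6-KO library than in each Ncoa6-sufficient library under both conditions, at 175 and 143 against 239 and 208 normalized counts with medium alone and 69.3 and 97.9 against 121 and 100.5 with LPS + MSU. The log2 fold changes were -0.49 ± 0.18 and -0.41 ± 0.22 and neither was called (edgeR adjusted p = 0.269 and 0.395). Rxrb with LPS + MSU had 583 and 569 counts against 445 and 465, a log2 fold change of 0.34 ± 0.11 (95% interval 0.11 to 0.57) with an adjusted p of 0.116, and with medium alone 0.04 ± 0.10. Pparg gave -0.18 ± 0.15 and -0.41 ± 0.20 in the respective conditions (adjusted p = 0.686 and 0.320), and the libraries overlapped with medium alone and did not with LPS + MSU. For Rxra the values were 0.15 ± 0.11 and 0.16 ± 0.17 and for Ppard -0.21 ± 0.16 and 0.32 ± 0.20, none called.

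Nr3c1 was measured most precisely, and its 95% intervals for the knockout effect were -0.24 to 0.15 with medium alone and -0.37 to 0.01 with LPS + MSU on the log2 scale (edgeR adjusted p = 0.902 and 0.320). Intervals were wider for the low genes: -0.29 to 0.93 and -0.47 to 0.85 for Nr4a1, -0.39 to 1.16 and -0.92 to 0.31 for Nr4a2 and -2.53 to 0.64 and -1.75 to 2.83 for Vdr. A miss of the threshold does not show equal levels.

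**Figure D3:**
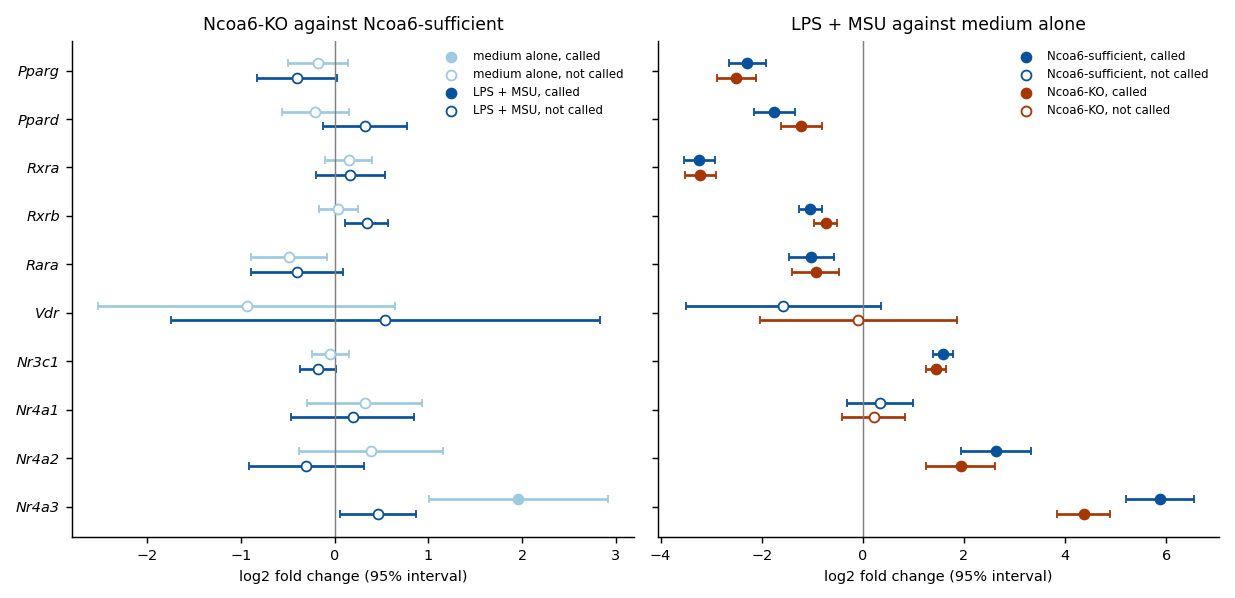
Log2 fold changes (x axis) of the 10 receptors with their 95% intervals from edgeR, for Ncoa6-KO against Ncoa6-sufficient BMDMs (left) and LPS + MSU against medium alone (right, on a wider scale), with filled points for called genes. On the left only Nr4a3 with medium alone is filled, at 1.96, and on the right 8 receptors are filled in each genotype, from -3.23 for Rxra to 5.87 for Nr4a3.

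Whether the knockout changed the response was tested as the interaction of genotype and LPS + MSU. None of the 10 receptors passed, and edgeR called 0% of all genes, while 1045 genes had an unadjusted p under 0.05 and DESeq2 called 43 genes, none of them among the 10. Nr4a3 had the smallest unadjusted p of the list, with a log2 difference of -1.5025 ± 0.48 (edgeR adjusted p = 0.652), beside a starting level of 3 raw counts a library in Ncoa6-sufficient BMDMs. Next were Rxrb at 0.30 ± 0.14 and Ppard at 0.53 ± 0.26 (adjusted p = 0.852 and 0.853), both with a smaller decrease in Ncoa6-KO BMDMs. For Rxra the difference was 0.02 ± 0.20 with a 95% interval of -0.43 to 0.46.

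A list of 39 other nuclear receptors was used as a frame. Of these 19 passed the filter, 7 had no count in any library, and edgeR called 0 in either knockout comparison. At an unadjusted p under 0.05 there were 4 with medium alone and 3 with LPS + MSU, beside 12.8% and 17.4% of all genes. In the response to LPS + MSU 5 rose and 8 fell in Ncoa6-sufficient BMDMs, with 4 and 7 in Ncoa6-KO BMDMs. The 5 with the highest level per kilobase, by the highest of the 4 group means, were Nr1h2, Nr1h3, Nr1d2, Esrra and Nr1d1, of which Nr1d1 was among the first 5 with medium alone in Ncoa6-KO BMDMs and in no other group. Nr1h3, the oxysterol receptor LXRα, had 319 and 265 normalized counts with medium alone, then 1250 and 1056 after LPS + MSU in Ncoa6-sufficient BMDMs, a log2 rise of 1.98 ± 0.13 (adjusted p = 1.42e-07), so the RXR partners did not all fall. Nr1h2 (LXRβ) and Esrra, an estrogen-related receptor, rose by 0.26 ± 0.09 and 0.92 ± 0.09 on the log2 scale, and with library totals Nr1h2 was at -0.41, the opposite direction, and also called (adjusted p = 0.00240). Nr1d1, the clock repressor REV-ERBα, fell by 2.87 ± 0.26, and Nr1d2, its paralog, at -0.24 ± 0.14, was not called. Between genotypes with medium alone, Nr1d1 had 395 and 451 normalized counts in Ncoa6-KO BMDMs against 184 and 293, and Nr1h3 had 206 and 214 against 319 and 265. These groups did not overlap, and neither was called (edgeR adjusted p = 0.0569 and 0.104).

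**Figure D4:**
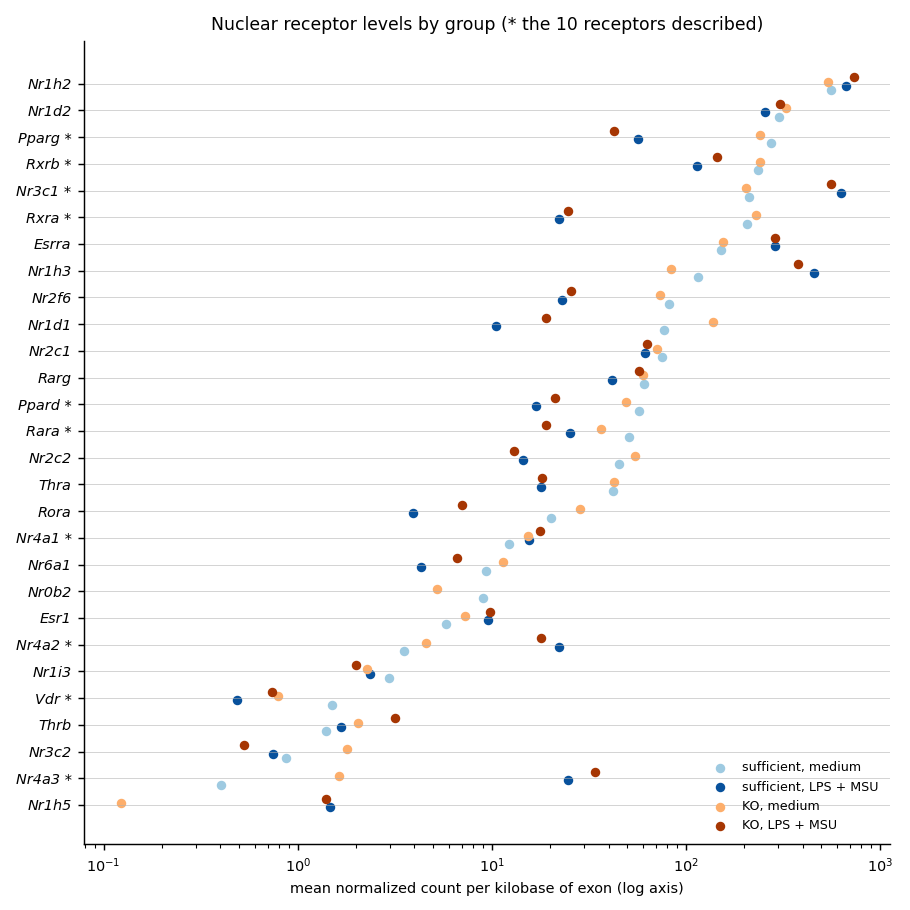
Mean normalized count per kilobase of exon (log axis) of the 28 nuclear receptors that reached 1 in at least 1 group, ordered by Ncoa6-sufficient BMDMs with medium alone, with 1 point per group and stars at the receptors of the list. A group at 0 has no point. Nr3c1 moves from 212 to 635 and Rxra from 208 to 22.1 in Ncoa6-sufficient BMDMs.

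Genes known as targets of the receptors, most of which have other regulators too, went in both directions. Of 16 PPAR targets tested, 2 rose and 4 fell with LPS + MSU in Ncoa6-sufficient BMDMs, with 3 and 3 in Ncoa6-KO BMDMs, at a median log2 fold change of -0.11 and 0.04. Acadl, a mitochondrial dehydrogenase, rose by 0.54 and 0.57 and Fabp4, a fatty acid carrier, by 0.39 and 0.49 on the log2 scale, a direction that flipped with library totals, to -0.13 and -0.06 for Acadl and to -0.28 and -0.14 for Fabp4. Between genotypes edgeR and DESeq2 called 0 PPAR targets under either condition. At an unadjusted edgeR p under 0.05 there were 3 with medium alone and 1 with LPS + MSU, beside 12.8% and 17.4% of all genes.

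Of 11 retinoic acid genes, 2 rose and 4 fell under LPS + MSU in Ncoa6-sufficient BMDMs, with 3 and 3 in the knockout, and between genotypes edgeR and DESeq2 called 0, with 0 at an unadjusted p under 0.05. Ncoa7, a coactivator, and Tgm2, a transglutaminase, rose by 1.96 and 1.28 on the log2 scale in Ncoa6-sufficient BMDMs, and Dhrs3, a retinaldehyde reductase, fell by 1.14. Of 7 vitamin D genes, 3 rose and 1 fell in each genotype. Thbd, thrombomodulin, fell by 2.61 in Ncoa6-sufficient and by 3.98 in Ncoa6-KO BMDMs on the log2 scale, while Cd14, a co-receptor for LPS, rose by 2.57 and 3.30 and Spp1, osteopontin, by 0.54 and 0.68, of which the first was -0.14 with library totals. Between genotypes Cd14 was lower in unstimulated Ncoa6-KO BMDMs (log2 fold change -0.78 ± 0.15, edgeR adjusted p = 0.0299), and with LPS + MSU Thbd was lower (-1.26 ± 0.29, adjusted p = 0.0397) and Spp1 higher (0.60 ± 0.14, adjusted p = 0.0449). Cd14 is also in the list of macrophage markers.

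Of 15 glucocorticoid receptor targets, 6 rose and 5 fell in Ncoa6-sufficient and 7 and 6 in Ncoa6-KO BMDMs, beside the rise of Nr3c1 itself. Nfkbia, the NF-κB inhibitor, Dusp1, a phosphatase of MAP kinases, and Zfp36, an mRNA decay factor, rose by 4.17, 3.78 and 3.10 on the log2 scale in Ncoa6-sufficient BMDMs, and all 3 are also induced by LPS itself. Among those lower were Klf9, a Krüppel-like factor, which fell by 1.71 and 1.76 in the respective genotypes, and Tsc22d3 (GILZ) and Per1, a clock gene, both chosen after their values were seen, which fell by 2.53 and 2.05 and by 1.09 and 1.10. Between genotypes, Klf9 was higher in Ncoa6-KO BMDMs with medium alone, at 223 and 209 against 125 and 119 normalized counts (log2 fold change 0.82 ± 0.17, edgeR adjusted p = 0.0386). With LPS + MSU, Zfp36 was lower (-0.82 ± 0.15, adjusted p = 0.0156) and Cdkn1a, a cell-cycle inhibitor, higher (0.75 ± 0.15, adjusted p = 0.0226).

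Immediate early genes, the class to which NR4A genes belong, rose almost throughout the list with LPS + MSU: 17 of 20 in Ncoa6-sufficient and 18 of 20 in Ncoa6-KO BMDMs, with Fosb, a single exception named after its value was seen, falling in each, and with library totals 3 of the 17 and 4 of the 18 had a log2 value below 0. Klf6, Junb and Maff rose by 2.56, 2.35 and 2.27 on the log2 scale in Ncoa6-sufficient BMDMs, and in Ncoa6-KO BMDMs Myc, Junb and Ier3 rose by 2.61, 2.44 and 2.37. The log2 values of Nr4a2 in the same comparisons were 2.63 and 1.94, those of Nr4a1 0.34 and 0.21, and those of Nr4a3 were above all genes named here. In the knockout, 1 immediate early gene was called lower with medium alone, 3 were with LPS + MSU, and none was higher. At an unadjusted p under 0.05 there were 10 of 20 with medium alone, all lower, and 8 with LPS + MSU, 6 lower and 2 higher, beside 12.8% and 17.4% of all genes. Ier3 was at 115 and 72.9 against 222 and 218 normalized counts with medium alone (log2 fold change -1.21 ± 0.19, edgeR adjusted p = 0.0138) and at 520 and 462 against 1053 and 852 with LPS + MSU (-0.96 ± 0.17, adjusted p = 0.0142). Btg2 and Ier2 with LPS + MSU fell by 1.21 ± 0.17 and 0.86 ± 0.18 on the log2 scale (adjusted p = 0.00518 and 0.0267). Nr4a3, at the same time, was not lower in the knockout under either condition.

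**Figure D5:**
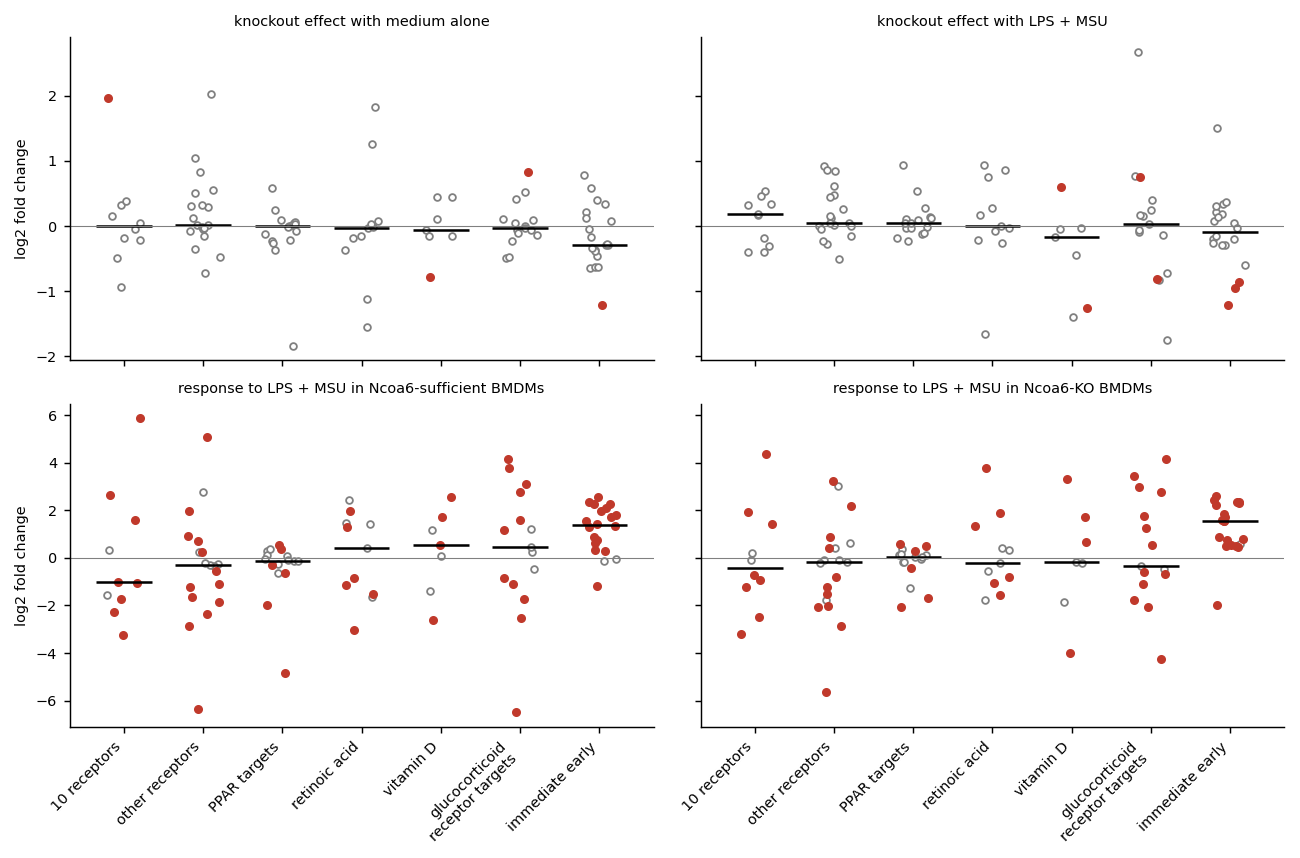
Log2 fold changes (y axis) of the tested genes of 7 lists in the 4 comparisons, 1 point per gene, spread sideways for visibility, with red points for genes called by edgeR, open points for the rest and a line at each list's median. Most immediate early genes lie above 0 with LPS + MSU, with a median of 1.37 and 1.55, while the receptors and the other lists spread to both sides.

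Several marker lists differed between the culture conditions, and genes of the macrophage, osteoclast and B cell lists also between genotypes. Macrophage markers with LPS + MSU gave 5 genes higher and 2 lower in Ncoa6-sufficient BMDMs and 5 and 1 in Ncoa6-KO BMDMs, and in the knockout 3 of 10 were lower under each condition, with summed levels of 414700 to 482000 against 272300 to 313500 with medium alone and 539000 to 608400 against 396300 to 424000 with LPS + MSU. Lyz2, the locus that carries Cre, fell by 1.01 and 0.95 on the log2 scale, and it made up 40.3 to 56.5% of the sum in Ncoa6-sufficient and 30.5 to 41.1% in Ncoa6-KO BMDMs. Without Lyz2 the other 9 genes summed to 160300 to 185900 in the knockout against 204800 to 209900 with medium alone, and to 273000 to 294600 against 321700 to 338100 with LPS + MSU. Of the osteoclast markers, 3 of 6 tested were called in the knockout with medium alone, Ctsk higher by 0.68 on the log2 scale and Dcstamp and Mmp9 lower (-1.24 and -0.67), and with LPS + MSU Ctsk was, higher by 0.80. Of 4 B cell markers tested with LPS + MSU, 1 was higher and 3 were lower in the knockout, at a median log2 fold change of -1.12. The only one called was Ighm, higher by 1.53. Dendritic cell markers summed to 18.9 to 30.02 with medium alone and 175 to 281 with LPS + MSU, neutrophil markers to 446 to 523 and 759 to 993, stromal markers to 152 to 498 and 366 to 996, and osteoclast markers to 1823 to 2260 and 2476 to 2832. B cell markers were at 355 to 596 and 92.8 to 222, and mast cell and eosinophil markers at 302 to 598 and 52.7 to 79.8. T and NK cell markers, of which 5 of 8 had no count in any library, summed to 5.25 to 10.5 and 74.2 to 198, nearly all Lck. The part of these genes in the receptor results was not tested.

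The genes whose profile over the 8 libraries was nearest to a receptor's were taken from 11200 genes, by the root-mean-square difference of their centred log2 levels. Nr3c1 had the closest neighbours, Nsmaf at 0.0263 and Stau1 at 0.0366, beside a standard deviation of 0.760 for Nr3c1 itself. Rxrb was nearest to Abcb8 (0.0337) and Emc9 (0.0474), Ppard to Ing4 (0.0698) and Zswim6 (0.0793), and Pparg to Rassf2 (0.0977) and Gpr157 (0.122). Rxra was nearest to Mnt (0.151) and Hdac5 (0.162), Nr4a2 to Tnks1bp1 (0.148) among others, Nr4a3 to Cd200 (0.222) and Ppfia3 (0.334), and Rara to Rgs3 (0.140) and Med26 (0.156). For Nr4a1, with Ltf (0.136) and Fam110b (0.156), and Vdr, with Fgr (0.318) and Pdgfb (0.338), the differences were larger relative to the receptor's own standard deviation, which was 0.275 and 0.645. The 8 libraries share their 2 culture conditions, and 53.1% to 55.2% of all genes were called between them.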

How the data were processed

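The authors made stranded poly(A) libraries from the BMDMs, and per the submitters' processing notes and the methods mapped the read pairs to GRCm38 with STAR 2.7.3a and quantified genes with RSEM 1.3.3 on Ensembl annotation release 101. What they deposited is a table of RSEM expected counts without normalization, with 50615 genes and 8 libraries. They share out reads that fit several genes, so close paralogs are less certain. Columns were matched to samples by name.

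After rounding of the expected counts, genes whose 8 counts summed to less than 10 were dropped. edgeR 4.0.16 in R 4.3.3 fitted the 4 groups with TMM normalization and a quasi-likelihood test with 4 residual degrees of freedom, and calls were made at a Benjamini-Hochberg adjusted p under 0.05 over 17625 genes. Single genes carry only p-values of this model, because an exact permutation of 2 against 2 libraries cannot give a p below 0.333. Per the methods the 2 libraries of a group came from different mice. The p-values combine a gene's own spread between these libraries with the spread of the other genes. Levels per kilobase use exon lengths of GENCODE M21 on GRCm38. The fit was tested on data simulated from the gene means of these libraries, where fewer genes were recovered at small folds. The simulation gave all genes the same dispersion and had no response to LPS + MSU. It changed only genes with a mean of at least 50 counts. It therefore does not cover genes as low as Vdr, or as Nr4a3 was in unstimulated cells.

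Named were the 10 receptors, Ncoa6, the other receptors called in a knockout comparison and the 5 highest per kilobase, up to 3 called genes of each other list per comparison with the largest log2 fold change at a mean of at least 50 normalized counts, and the 2 genes of nearest profile per receptor; some genes that this rule names are not reported here. The members and lists were chosen with earlier results of these data known. Alternatives were DESeq2 1.42.0, its size factors in edgeR, filterByExpr, no filter, limma-voom (limma 3.58.1), the library number as a block, a fit of the 4 libraries compared, each library left out, and library totals, the last added after the TMM factors were seen.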

Additional observations from a re-analysis of the deposited data

How the results depend on the processing

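The 8 responses to LPS + MSU that were called kept their direction and their call under all 12 alternatives in each genotype, and no receptor was called in the interaction under any of 15. Of the receptors with medium alone, the call of Nr4a3 remained with DESeq2 size factors in edgeR, with no filter and with the replicate block, and 0 were called with DESeq2, filterByExpr, limma-voom, only the 4 libraries compared, library totals and each library left out. The cause was not tested. Over all genes, the 331 calls of the knockout with medium alone became 1152 with no filter, 1023 with the replicate block and 22 to 351 when a library was left out, with 22 and 81 without either Ncoa6-sufficient library and 103 without Ncoa6-KO replicate 2. The 632 calls with LPS + MSU became 1611, 1532 and 49 to 454, with 347 for only the 4 libraries compared, and 49 and 417 without Ncoa6-sufficient replicates 1 and 2 and 63 without Ncoa6-KO replicate 2. The interaction went from 0 to 43 with DESeq2, 269 with no filter, 86 with the replicate block and 0 to 16 when a library was left out. The labels do not tie a library number to a mouse or a day. Deviations of same-numbered libraries correlated at 0.052 to 0.369 across genes, above 0.1 in 5 of 6 pairs of groups and highest within a genotype. Pairing was therefore not established, and the paired fit is given as these counts.

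Several uncalled log2 fold changes turned sign when a library was left out, including Vdr at 1.48 for the interaction in the main fit. For the knockout with medium alone they ran from -0.0397 to 0.11 for Rxrb, -0.48 to 0.0138 for Ppard and -0.093 to 0.0012 for Nr3c1. For the knockout with LPS + MSU they ran from -1.02 to 1.48 for Vdr, -0.11 to 0.53 for Nr4a1 and -0.0426 to 0.33 for Rxra. For the response in Ncoa6-KO BMDMs they ran from -1.64 to 0.67 for Vdr and -0.0025 to 0.40 for Nr4a1, and Nr4a1 was at -0.33 and -0.42 with library totals in the respective genotypes. For the interaction they ran from -0.23 to 0.14 for Rxra, -0.23 to 0.26 for Rara, -0.46 to 0.17 for Nr4a1, -0.11 to 2.38 for Vdr and -0.28 to 0.0494 for Ncoa6, and Rxra was at -0.0401 with DESeq2, -0.0405 with its size factors in edgeR and -3e-04 with limma-voom. Depth limits Vdr and, in unstimulated cells, Nr4a3.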

Other observations

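The machinery around the glucocorticoid receptor was followed in 9 genes for chaperones and ligand enzymes, of which edgeR called 0 in either knockout comparison. At an unadjusted p under 0.05 there was 1 with medium alone and 1 with LPS + MSU, beside 12.8% and 17.4% of all genes. With LPS + MSU 2 rose and 2 fell in Ncoa6-sufficient BMDMs, and 3 and 2 in Ncoa6-KO BMDMs. Stip1, a co-chaperone that loads receptors onto HSP90, had 2360 and 2414 normalized counts in unstimulated Ncoa6-sufficient BMDMs, against 5091 and 5043 after LPS + MSU, a log2 rise of 1.09 (adjusted p = 9.00e-06). Hspa8, a constitutive heat shock protein, rose by 0.52 on the log2 scale (adjusted p = 0.00480), and was at -0.15 with library totals. H6pd, which supplies NADPH to the enzyme that regenerates active glucocorticoid, fell by 0.92 (adjusted p = 3.02e-06), from 1802 and 1767 to 959 and 924 counts. The gene of that enzyme, Hsd11b1, was near the limit of the depth, at 0 to 6 raw counts a library.

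Angptl4, a lipase inhibitor and PPAR target singled out after its values were seen, stood at 79.6 and 44.7 normalized counts in Ncoa6-sufficient BMDMs with medium alone and at 18.8 and 15.8 in Ncoa6-KO BMDMs. The groups did not overlap, the log2 fold change was -1.84 ± 0.42, and the edgeR adjusted p of 0.0547 missed the threshold. With LPS + MSU it was at 2.77 and 1.38 against 1.31 and 6.99 counts.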
